A study of Mus musculus with 8 samples.

Results

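Csf1r, Ccr2, Cx3cr1, Fcgr1, Clec12a, Cd68, Mpeg1, Aoah and F13a1 are genes by which monocytes and macrophages are commonly recognised. The 9 genes were chosen by name as identity genes of that lineage, with no threshold on a measured value. The choice was made with earlier results of these data known, so counts of calls among the 9 describe them and are no independent evidence. Each had 1 transcript cluster of its own on the array (a set of probes spread along 1 gene), so all 9 were measured, out of 19938 genes with at least 1 such cluster. No filter on low values was applied, and all 9 entered every test.

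Bone marrow cells were profiled on 8 arrays (Affymetrix Mouse Gene 1.0 ST) after sorting from mice that were 7 weeks old, on a C57BL6 background after 12 backcross generations (N12). Knockout mice (KO) were Vav1-iCre x Cbfb(F/F), with both Cbfb alleles floxed and a Cre recombinase driven by the Vav1 promoter, which is active across blood cells. Control mice (Het) were Vav1-iCre x Cbfb(F/+), with the same Cre and 1 of the 2 Cbfb alleles floxed. The sorted cells were LSK (a fraction with stem cells and early multipotent progenitors) and GMP (progenitors of granulocytes and macrophages), from 2 mice of each genotype. This gave the groups KO LSK, Het LSK, KO GMP and Het GMP, with 2 arrays each. All 8 samples carried Cre and none was wild type, so each genotype effect is that of KO against Het. The sorted cells are progenitors, not mature monocytes or macrophages.

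Monocytes develop in bone marrow from granulocyte and macrophage progenitors under transcription factors that include PU.1 and Irf8, leave the marrow for the blood, and can become macrophages in tissues. Their survival and growth depend on signals through Csf1r, their movement on chemokine receptors such as Ccr2 and Cx3cr1, and their clearing of microbes and debris on Fc receptors and lysosomal proteins. Cbfb encodes the subunit of core-binding factor that does not touch DNA itself but steadies its Runx partners on the motif TGTGGT.

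Promoter sequence was examined because Cbfb acts through that motif. RefSeq windows of 300 bases (250 before and 50 after the start site, GRCm38.p6) were found for 8 of the 9 genes, as 9 entries, since F13a1 had 2. No entry was found for Csf1r. The letters TGTGGT stood on 1 strand or the other in the windows of 3 genes (Cx3cr1, Clec12a and Aoah), and 16.8% of the 32851 windows in the table hold them. The looser form TGNGGT, which includes TGTGGT, stood in 7 genes (all but Fcgr1 among those with a window), against 45.8% of all windows. In F13a1 it stood in only 1 of the 2 windows, and these counts are of genes while the shares are of windows. GAGGAA, the core bound by ETS factors such as PU.1, stood in 4 (Clec12a, Fcgr1, F13a1 and Cd68), against 28.3%. Counted from the start site, with negative positions upstream of it, TGTGGT began at position -44 in Aoah and -155 in Clec12a, and its complement ACCACA began at -54 in Cx3cr1. The 250 bases before the start site are printed for Ccr2 and Aoah, whose KO against Het effect differed between LSK and GMP cells by the test below, and for Cx3cr1 and Clec12a, which hold TGTGGT and were called in 1 of the cell types. Capitals mark TGNGGT and GAGGAA on either strand. In windows of these 250 bases, 14% of all promoters hold TGTGGT, 40.1% TGNGGT and 23.3% GAGGAA. The windows lie at chr9:124101933-124102182 on the plus strand (Ccr2), chr9:120068297-120068546 on the minus strand (Cx3cr1), chr6:129349994-129350243 on the plus strand (Clec12a) and chr13:20793863-20794112 on the plus strand (Aoah).
Ccr2: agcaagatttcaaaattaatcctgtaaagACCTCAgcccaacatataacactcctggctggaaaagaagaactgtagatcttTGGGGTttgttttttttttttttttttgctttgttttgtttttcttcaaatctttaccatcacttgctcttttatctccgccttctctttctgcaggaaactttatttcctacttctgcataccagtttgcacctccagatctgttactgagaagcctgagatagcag
Cx3cr1: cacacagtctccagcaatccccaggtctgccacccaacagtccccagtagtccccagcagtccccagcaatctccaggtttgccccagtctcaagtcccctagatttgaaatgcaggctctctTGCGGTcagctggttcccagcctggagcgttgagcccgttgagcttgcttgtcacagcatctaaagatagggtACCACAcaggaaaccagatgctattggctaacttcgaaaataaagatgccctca
Clec12a: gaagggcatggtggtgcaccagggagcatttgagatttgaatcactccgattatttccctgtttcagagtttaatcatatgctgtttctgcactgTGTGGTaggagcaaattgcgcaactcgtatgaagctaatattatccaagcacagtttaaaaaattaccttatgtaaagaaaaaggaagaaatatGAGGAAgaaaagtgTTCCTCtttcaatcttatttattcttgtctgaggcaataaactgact
Aoah: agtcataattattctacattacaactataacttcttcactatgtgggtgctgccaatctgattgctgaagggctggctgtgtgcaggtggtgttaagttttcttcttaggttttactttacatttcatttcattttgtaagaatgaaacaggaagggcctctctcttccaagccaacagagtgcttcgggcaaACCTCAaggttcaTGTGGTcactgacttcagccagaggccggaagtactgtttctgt
A match of letters is a description of the sequence and shows neither binding nor an effect.

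Values are log2 expression from robust multi-array average (RMA), which has no detection call, so a low value is not shown to be expression. Arrays had medians of 4.92 to 5.09 over clusters with 1 gene symbol. Pearson's r between arrays was 0.990 to 0.995 within a group and 0.955 to 0.983 between groups. Cbfb itself was 6.93 and 6.98 in KO LSK cells, against 7.56 and 7.55 in Het LSK cells. In GMP cells it was 6.49 and 6.96 in KO, against 7.53 and 7.65 in Het. The differences were -0.60 in LSK (limma, adjusted p = 0.0557) and -0.86 in GMP (adjusted p = 0.013), with KO below Het on every array. The LSK difference passed with a trended and robust variance prior (adjusted p = 0.0325) and with only clusters above the median mean (0.0349). Over all clusters of the table, with or without a symbol, the GMP difference missed the threshold (0.0632). Whether the probes cover the deleted part of Cbfb was not known. The GMP call was lost without Het GMP array 1 (adjusted p = 0.0689), Het GMP array 2 (0.104) or KO GMP array 1 (0.0755). Of the sorting markers, Kit was 10.757 and 10.498 in KO LSK, against 10.076 and 10.300 in Het LSK. In GMP cells Kit was 9.903 and 9.669 in KO, against 9.135 and 9.259 in Het. Cd34 was 10.815 and 10.775 in KO LSK, against 11.048 and 11.036 in Het LSK. In GMP cells Cd34 was 9.707 and 9.333 in KO, against 9.634 and 9.885 in Het. KO and Het arrays thus did not overlap for Kit in either cell type, nor for Cd34 in LSK. Fcgr3, one of the antigens that define GMP cells, was 8.67 to 9.74 on GMP arrays and 4.79 to 6.45 on LSK arrays. In bulk samples such as these, fewer cells of a type and less RNA per cell cannot be told apart. With 2 arrays per group an exact permutation test of a single gene cannot go below p = 0.333, so the tests rest on limma, which pools the spread over genes.

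In GMP cells, 6 of the 9 genes were lower in KO than in Het at an adjusted p under 0.05 (Csf1r, Ccr2, Cx3cr1, Cd68, Mpeg1 and Aoah), while 2.57% of all tested clusters were called lower. None of the 9 was called higher, at an adjusted or at an unadjusted p under 0.05, while 3.45% of all clusters were called higher. In LSK cells, 4 of the 9 were lower in KO (Clec12a, Cd68, Mpeg1 and Aoah), against 4.71% of all clusters. There again none was called higher by limma, against 3.02% of all clusters, with 1 higher at an unadjusted p under 0.05 (Ccr2). The 2 KO arrays were lower than the 2 Het arrays, without overlap, for 7 of the 9 genes in GMP and for 5 in LSK, where this held for 27.9% and 22.7% of all clusters. The median log2 difference of the 9 genes was -1.23 in GMP, where that of all clusters was -0.02, and -0.53 in LSK, where that of all clusters was 0.01. Fcgr1 and F13a1 passed in neither cell type. Replicates came from separate mice, and p-values rest on the spread within all 4 groups of 2 arrays, moderated by that of other clusters.

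**Figure D1:**
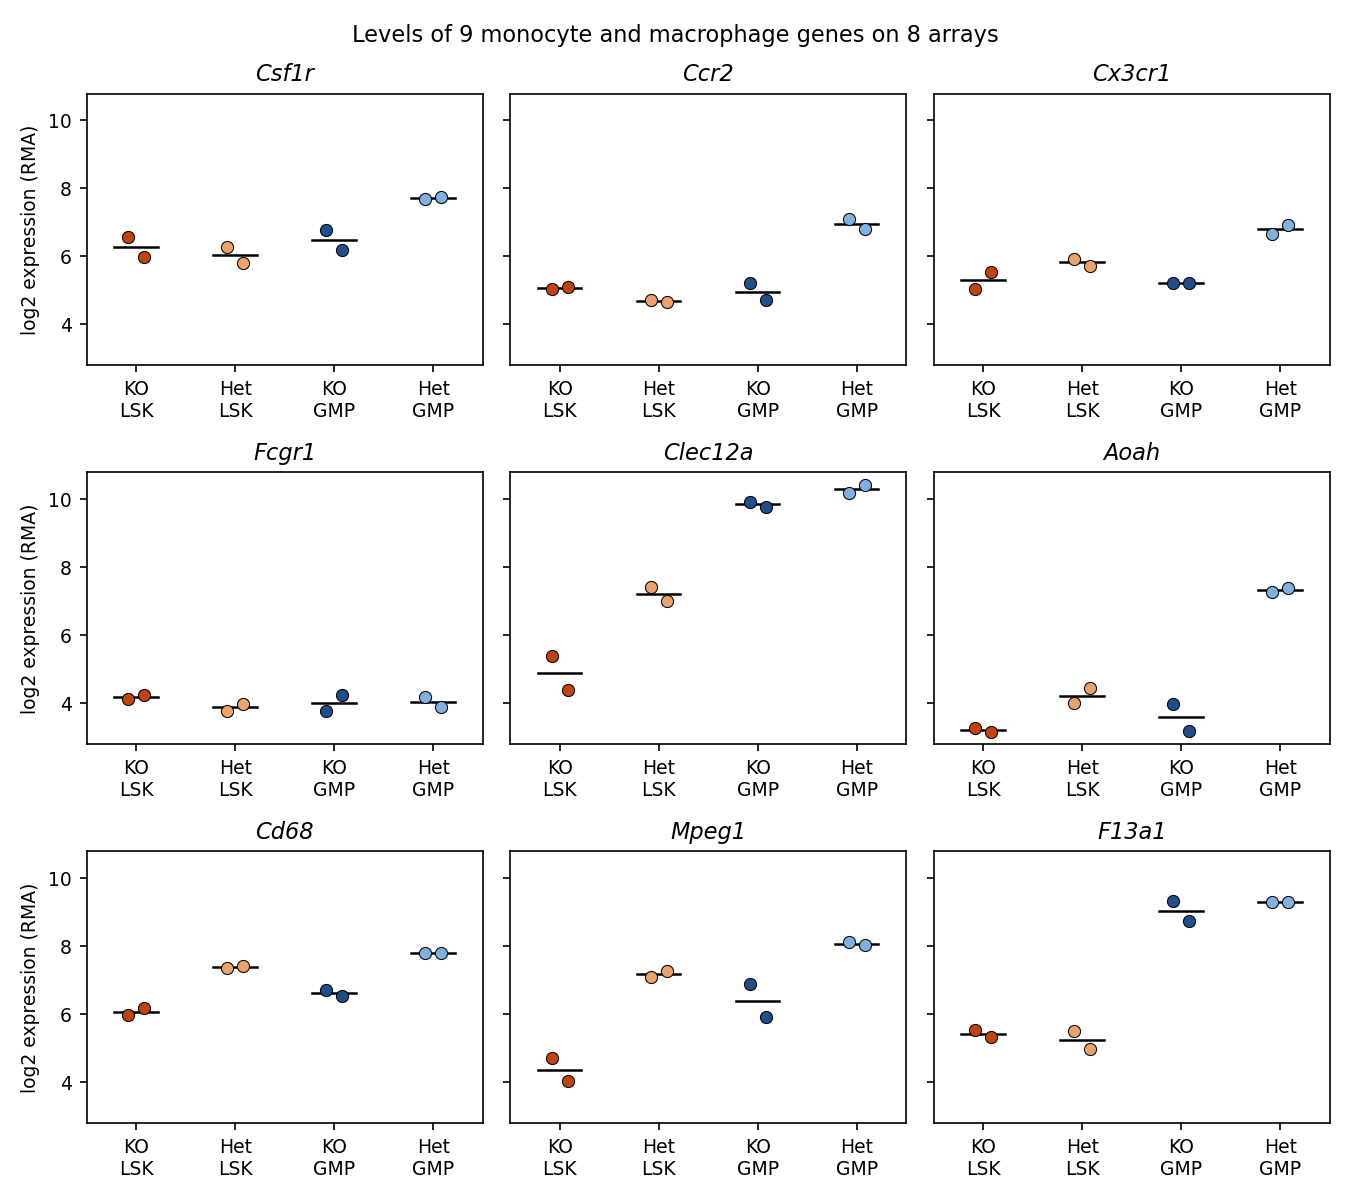
Log2 expression (RMA) of each of the 9 genes on 8 arrays. Each point is 1 array, the bar is the mean of 2, and groups run KO LSK, Het LSK, KO GMP, Het GMP. For Csf1r, Ccr2, Cx3cr1 and Aoah the Het GMP arrays stand above the other 6 arrays, Clec12a and F13a1 are high in both GMP groups, and Fcgr1 stays between 3.77 and 4.25.

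Csf1r encodes the receptor for the growth factors CSF1 and IL-34. Its log2 expression was 6.55 and 5.97 in KO LSK, 6.27 and 5.79 in Het LSK, 6.77 and 6.19 in KO GMP, and 7.68 and 7.74 in Het GMP. The Het GMP arrays were highest and clear of the rest, and the other 3 groups overlapped. In GMP, Csf1r fell by 1.23 (SE 0.25), a 2.34-fold lower level in KO (adjusted p = 0.0213). In LSK the difference was 0.23 (95% interval -0.34 to 0.80, adjusted p = 0.705). The GMP call was lost without Het GMP array 1 (adjusted p = 0.121), Het GMP array 2 (0.128) or KO GMP array 2 (0.162), and when the test ran over all clusters of the table, with or without a symbol (0.104).

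Ccr2 encodes the receptor for the chemokines Ccl2 and Ccl7, through which inflammatory monocytes leave the marrow. It measured 5.05 and 5.10 in KO LSK, 4.71 and 4.64 in Het LSK, 5.20 and 4.71 in KO GMP, and 7.11 and 6.81 in Het GMP. The KO GMP arrays overlapped with the KO LSK arrays and lay clear below the Het GMP arrays. The 2 Het LSK arrays and 1 KO GMP array lay below their array's median. Medians ran from 4.92 to 5.09, so the KO LSK values were close to them too. In GMP, Ccr2 fell by 2.001 (SE 0.17), a 4.002-fold lower level in KO (adjusted p = 0.000225). In LSK both KO arrays lay above both Het arrays, with a difference of 0.40 that did not pass (adjusted p = 0.253).

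Cx3cr1 encodes the receptor for fractalkine (Cx3cl1) and marks monocytes and several macrophages. Its values were 5.05 and 5.53 in KO LSK, 5.92 and 5.71 in Het LSK, 5.22 and 5.20 in KO GMP, and 6.66 and 6.93 in Het GMP. KO arrays lay below Het arrays in both cell types, with no overlap. In GMP, Cx3cr1 fell by 1.59 (SE 0.18), a 3.004-fold lower level in KO (adjusted p = 0.000808). The LSK difference was -0.53 (SE 0.18, adjusted p = 0.127), and it passed without KO LSK array 2 (adjusted p = 0.0309).

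Clec12a encodes an inhibitory C-type lectin receptor found on myeloid cells. It was 5.38 and 4.40 in KO LSK, 7.41 and 7.01 in Het LSK, 9.93 and 9.76 in KO GMP, and 10.19 and 10.42 in Het GMP. The groups did not overlap and ran from KO LSK at the low end to Het GMP at the high end, with the GMP groups close together. In LSK, Clec12a fell by 2.32 (SE 0.28), a 5.001-fold lower level in KO (adjusted p = 0.00115). In GMP the difference was -0.46 (95% interval -1.10 to 0.18, adjusted p = 0.483).

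Fcgr1 encodes the high-affinity IgG receptor CD64. Its values were 4.12 and 4.23 in KO LSK, 3.78 and 3.98 in Het LSK, 3.77 and 4.25 in KO GMP, and 4.17 and 3.89 in Het GMP. These lay below the array's median on all 8 arrays and spanned about 0.5 log2 units. The difference was 0.29 in LSK (95% interval -0.12 to 0.70, adjusted p = 0.435) and -0.02 in GMP (95% interval -0.43 to 0.38, adjusted p = 0.97).

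Cd68 encodes a glycoprotein of late endosomes and lysosomes and is a common macrophage marker. It measured 5.97 and 6.18 in KO LSK, 7.35 and 7.41 in Het LSK, 6.71 and 6.52 in KO GMP, and 7.80 and 7.81 in Het GMP. Each KO group lay below both Het groups. Cd68 fell by 1.30 in KO LSK (SE 0.13, adjusted p = 0.000319) and by 1.19 in KO GMP (SE 0.13, adjusted p = 0.000674), and the difference between these effects was 0.11 (95% interval -0.29 to 0.52, adjusted p = 0.879).

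Mpeg1 encodes perforin-2, a pore-forming protein that macrophages use against engulfed bacteria. Its values were 4.71 and 4.03 in KO LSK, 7.10 and 7.27 in Het LSK, 6.88 and 5.92 in KO GMP, and 8.12 and 8.02 in Het GMP. The KO LSK arrays were lowest and below their array's median, and the KO GMP arrays lay below both Het groups. Mpeg1 fell by 2.81 in KO LSK (SE 0.30, 7.03-fold, adjusted p = 0.000562). It fell by 1.67 in KO GMP (SE 0.30, 3.18-fold, adjusted p = 0.0119). The GMP call was lost without Het GMP array 1 (adjusted p = 0.096), Het GMP array 2 (0.0727) or KO GMP array 2 (0.0594), and over all clusters of the table (0.0749).

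Aoah encodes acyloxyacyl hydrolase, a lysosomal enzyme that inactivates bacterial lipopolysaccharide by removing acyl chains. It was 3.26 and 3.16 in KO LSK, 3.99 and 4.45 in Het LSK, 3.99 and 3.18 in KO GMP, and 7.27 and 7.40 in Het GMP. Only the Het GMP arrays stood above their array's median, and the other 6 arrays lay below theirs. In GMP, Aoah fell by 3.75 (SE 0.25), a 13.5-fold lower level in KO (adjusted p = 5.98e-05), and its difference ranked 4 from the lowest among 21789 clusters. In LSK it fell by 1.01 (SE 0.25, adjusted p = 0.0404). That LSK call was lost without Het LSK array 1 (adjusted p = 0.0596), Het LSK array 2 (0.236), KO LSK array 1 (0.0879), KO LSK array 2 (0.124), or either Het GMP array (0.0733), and over all clusters of the table (0.132).

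F13a1 encodes the catalytic subunit of coagulation factor XIII, which monocytes, macrophages and megakaryocytes make. Its values were 5.54 and 5.32 in KO LSK, 5.51 and 4.97 in Het LSK, 9.32 and 8.73 in KO GMP, and 9.30 and 9.30 in Het GMP. KO and Het overlapped in both cell types. The difference was 0.19 in LSK (95% interval -0.33 to 0.70, adjusted p = 0.737) and -0.28 in GMP (95% interval -0.79 to 0.24, adjusted p = 0.626). Megakaryocyte markers moved with the genotype: 7 of 7 measured ones (of 11 listed) were called higher in KO GMP, against 3.45% of all clusters. The markers' mean level was 8.68 and 9.03 on KO GMP arrays, against 5.19 and 5.50 on Het GMP arrays. The part of such cells in the F13a1 level was not tested.

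**Figure D2:**
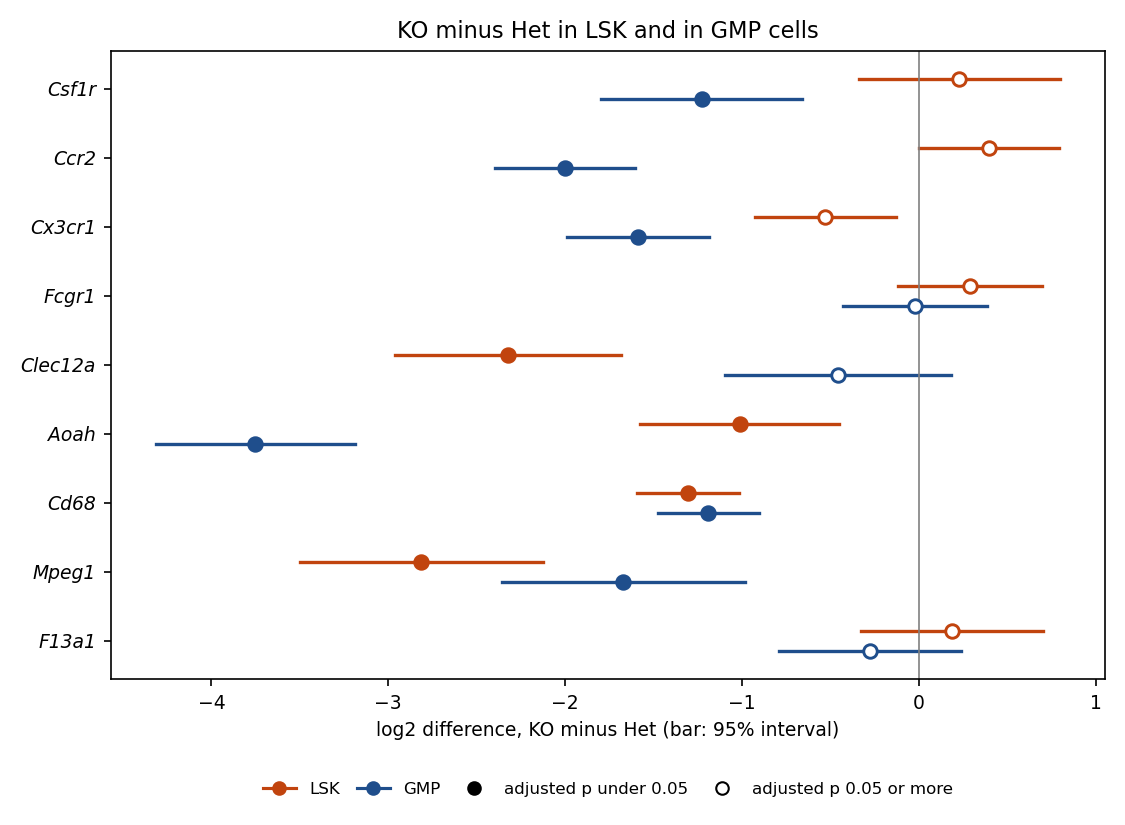
Log2 difference between KO and Het (horizontal axis, KO minus Het) for each gene in LSK and GMP cells. Points are limma estimates from 2 arrays per group, bars are 95% intervals, and filled points passed at an adjusted p under 0.05. Csf1r, Ccr2 and Cx3cr1 are filled in GMP, Clec12a is filled in LSK, and Aoah, Cd68 and Mpeg1 are filled in both.

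The difference between the GMP effect and the LSK effect was tested as an interaction. It passed for 2 of the 9 genes, both more negative in GMP, against 0.601% of all clusters called in that direction. These were Ccr2 (-2.40, SE 0.25, adjusted p = 0.00264) and Aoah (-2.74, SE 0.35, adjusted p = 0.00627). The Aoah interaction missed the threshold over all clusters of the table (adjusted p = 0.0514). No gene of the 9 was called more positive in GMP, against 1.69% of all clusters, while at an unadjusted p under 0.05 this held for 2 (Clec12a and Mpeg1). Clec12a had an interaction of 1.86 (SE 0.40, adjusted p = 0.0519), just beyond the threshold. It passed without KO LSK array 1 (adjusted p = 0.00468) or KO LSK array 2 (0.0376). Csf1r had -1.46 (SE 0.35, adjusted p = 0.0826) and passed without KO LSK array 2 (0.0448). Cx3cr1 had -1.06 (SE 0.25, adjusted p = 0.0737) and passed without KO LSK array 1 (0.0189). LSK and GMP cells came from the same mice, but the labels do not say which arrays share a mouse. If arrays of 1 genotype with the same number do, a fit with the mouse as a replicate block gives adjusted p = 0.0193 for Csf1r, 0.0294 for Clec12a, 0.0284 for Mpeg1 and 0.0821 for Cx3cr1, and Ccr2 (0.0048) and Aoah (0.0051) pass there too. For Mpeg1 the interaction call thus depends on whether the numbers mark mice. The Csf1r and Clec12a calls also changed in other settings. Clec12a passed with a trended and robust variance prior (adjusted p = 0.0252) and with only clusters above the median mean (0.0441). Csf1r passed with the replicate number as a block (0.0261). In the main fit, Mpeg1 (1.14, adjusted p = 0.279), F13a1 (-0.46, adjusted p = 0.64) and Fcgr1 (-0.32, adjusted p = 0.701) were farther from the threshold. With the mouse as a replicate block, F13a1 (adjusted p = 0.446) and Fcgr1 (0.619) did not pass either.

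The step between the progenitor stages was read within each genotype, as GMP against LSK. In KO mice 4 of the 9 genes were higher in GMP cells (Clec12a, F13a1, Mpeg1 and Cd68), where 3.66% of all clusters were called higher, and none of the 9 was called lower (limma, adjusted or unadjusted), where 2.39% were. In Het mice 7 of the 9 were higher in GMP cells (all but Mpeg1 and Fcgr1), where 7.9% of all clusters were called higher, and none was called lower (adjusted or unadjusted), where 9.6% were. The median difference of the 9 genes was 0.37 in KO and 1.68 in Het, and that of all clusters was -0.02 in KO and 0.01 in Het. These comparisons use the same arrays as those of KO against Het, so they are another view of the same values and no separate evidence.

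Clec12a was higher in GMP than LSK cells by 4.96 in KO (31.1-fold, adjusted p = 2.42e-05) and by 3.09 in Het (8.54-fold, adjusted p = 0.000118). F13a1 was higher by 3.60 in KO (12.1-fold, adjusted p = 4.45e-05) and by 4.06 in Het (16.7-fold, adjusted p = 1.3e-05). Both genes thus stood far higher in GMP than LSK cells in each genotype.

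Aoah differed between GMP and LSK cells by 0.37 in KO (95% interval -0.19 to 0.94, adjusted p = 0.471) and by 3.11 in Het (adjusted p = 5.89e-05). For Ccr2 the step was -0.12 in KO (95% interval -0.52 to 0.28, adjusted p = 0.782) and 2.28 in Het (adjusted p = 4.77e-05). For Aoah and Ccr2 the interaction above is the test that the step differed between the genotypes.

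Csf1r had a step of 0.22 in KO (95% interval -0.35 to 0.79, adjusted p = 0.703) and of 1.68 in Het (adjusted p = 0.00184). Cx3cr1 had -0.08 in KO (95% interval -0.48 to 0.32, adjusted p = 0.861) and 0.98 in Het (adjusted p = 0.00498). As given above, the interaction of neither receptor passed in the main fit. With the mouse as a block, that of Csf1r passed (adjusted p = 0.0193) and that of Cx3cr1 did not (0.0821).

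Mpeg1 was higher in GMP by 2.03 in KO (adjusted p = 0.00503), with 0.88 in Het (95% interval 0.20 to 1.57, adjusted p = 0.0823). The Het step passed without either KO LSK array (0.0488), without either KO GMP array (0.027), after each array's median was subtracted (1.04, adjusted p = 0.0316), and with the mouse as a replicate block (0.00438). Cd68 was higher in GMP by 0.54 in KO (adjusted p = 0.0401) and 0.43 in Het (adjusted p = 0.0484). Both Cd68 calls were near the threshold: with 1 array left out the KO step kept its call in 1 of 8 fits (adjusted p up to 0.238, without KO GMP array 1) and the Het step in 2 of 8 (up to 0.183, without Het GMP array 1). With the mouse as a replicate block both Cd68 steps missed the threshold (0.0665 in KO and 0.0745 in Het). Fcgr1 passed in neither genotype (-0.17 in KO, adjusted p = 0.689, and 0.15 in Het, adjusted p = 0.661).

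**Figure D3:**
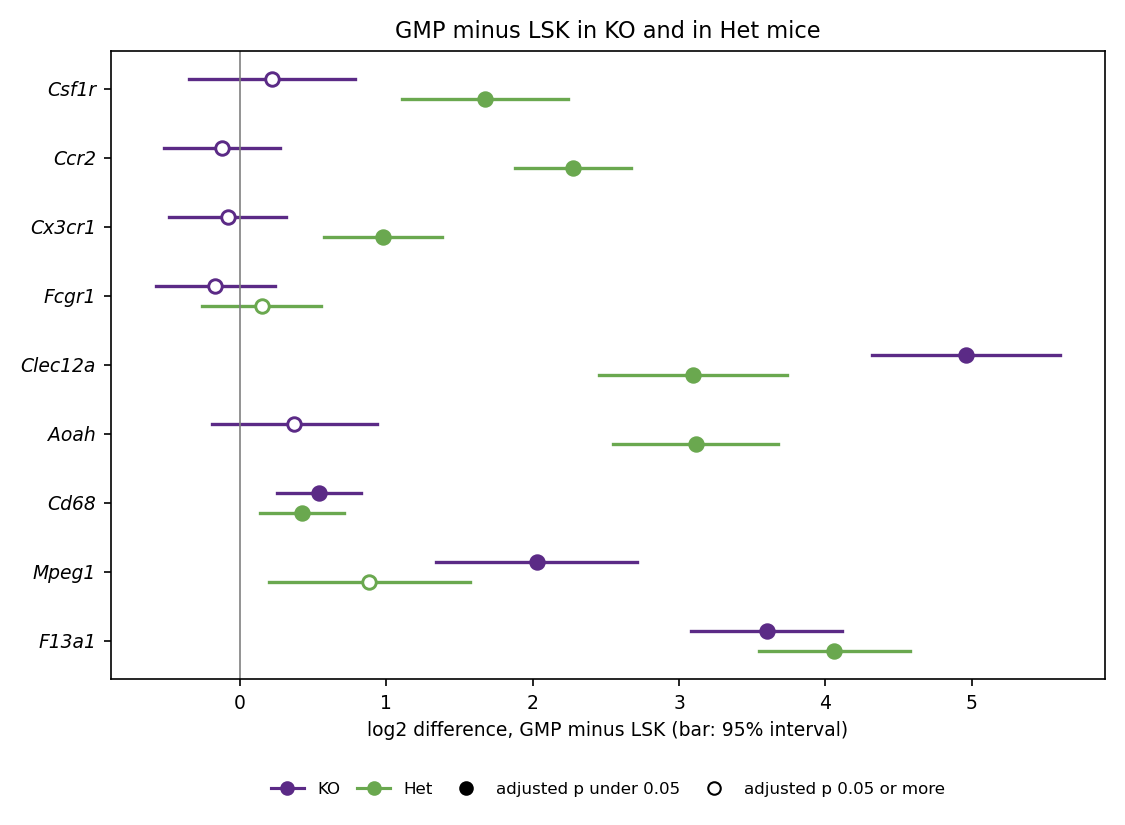
Log2 difference between GMP and LSK cells (horizontal axis, GMP minus LSK) for each gene in KO and in Het mice. Points are limma estimates from 2 arrays per group, bars are 95% intervals, and filled points passed at an adjusted p under 0.05. Clec12a, F13a1 and Cd68 are filled in both genotypes, Csf1r, Ccr2, Cx3cr1 and Aoah in Het, and Mpeg1 in KO.

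Among 10 measured ligands and signalling partners of the 9 genes, 3 were called higher and 1 lower in LSK, and 2 higher and 2 lower in GMP. Over all clusters, 3.02% were called higher and 4.71% lower in LSK, and 3.45% higher and 2.57% lower in GMP. Ccl2, the main ligand of Ccr2, was 7.78 and 7.78 in KO LSK, against 4.50 and 5.12 in Het LSK. In GMP it was 6.46 and 7.06 in KO, against 5.15 and 5.16 in Het. It rose by 2.97 in LSK (adjusted p = 9.78e-05) and by 1.61 in GMP (adjusted p = 0.00354), where Ccr2 itself fell. Ccl7, a second Ccr2 ligand, rose by 1.25 in LSK (adjusted p = 0.000854) and by 1.46 in GMP (adjusted p = 0.00046). The other chemokine ligands of the list did not pass (named after their values were seen). Cx3cl1, the ligand of Cx3cr1, had -0.70 in LSK (adjusted p = 0.0542) and -0.43 in GMP (adjusted p = 0.273), with KO arrays below Het arrays in both. Its LSK difference passed without KO LSK array 1 (0.0471) or Het LSK array 1 (0.0272). Ccl12 had -0.02 in LSK (adjusted p = 0.965) and 0.14 in GMP (adjusted p = 0.694). Cx3cl1 and Ccl12 lay below the array medians on all arrays. Csf1, a ligand of Csf1r (named after its values were seen), rose by 0.66 in LSK (adjusted p = 0.00921, and 0.0691 without Het LSK array 2), with 0.00 in GMP (adjusted p = 0.994). Fcer1g, the signalling chain on which Fcgr1 depends, was 8.499 and 8.004 in KO GMP, against 10.21 and 10.33 in Het GMP. It fell by 2.02 in GMP (adjusted p = 0.000296) and by 1.07 in LSK (adjusted p = 0.00793, and 0.0575 without Het LSK array 2). Tyrobp, an adaptor of myeloid receptors, fell by 0.78 in GMP (adjusted p = 0.0378), a call kept in 3 of 8 fits with 1 array left out. It was lost without KO GMP array 2 (0.241), Het GMP array 1 (0.124), Het GMP array 2 (0.219) or either Het LSK array (0.0645).

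Among 15 measured myeloid transcription factors (of 16 listed), 2 were called higher and 4 lower in LSK, and 3 higher and 2 lower in GMP. The list medians were -0.23 and -0.19. Shares over all clusters were 3.02% higher and 4.71% lower in LSK, and 3.45% higher and 2.57% lower in GMP. Irf8, which directs progenitors towards monocytes and dendritic cells, was 6.02 and 5.27 in KO GMP, against 8.28 and 8.49 in Het GMP. In LSK it was 5.90 and 5.49 in KO, against 7.29 and 7.01 in Het. Irf8 fell by 2.74 in GMP (adjusted p = 0.000258) and by 1.45 in LSK (adjusted p = 0.007, and 0.0609 without Het LSK array 1). Egr1, an immediate early factor linked to monocyte differentiation, was 8.63 and 8.76 in KO GMP, against 5.12 and 5.79 in Het GMP. It rose by 3.24 in GMP (adjusted p = 8.93e-05), and its LSK difference was 0.47 (adjusted p = 0.321). Nr4a1, which patrolling monocytes require, rose by 1.88 in GMP (adjusted p = 0.0127), a call lost without Het GMP array 1 (0.115), Het GMP array 2 (0.0565) or KO GMP array 2 (0.107). Its LSK difference was -0.43 (adjusted p = 0.57). Id2, an inhibitor of E proteins, fell by 2.16 in LSK (adjusted p = 0.00342), and its GMP difference of -0.87 (adjusted p = 0.19) passed without either KO LSK array (0.00571). The remaining calls are named after their values were seen. In GMP, Cebpa, a factor needed to form GMP cells, fell by 1.67 (adjusted p = 0.000487), and Egr2 rose by 0.64 (adjusted p = 0.0197). In LSK, Irf5 fell by 0.80, Gfi1 fell by 0.79, Zeb2 rose by 0.96 and Bhlhe40 rose by 0.60 (adjusted p from 0.00538 to 0.0387). Of these 6, Cebpa and Irf5 kept their calls in all 8 fits with 1 array left out, and the other 4 each lost theirs in at least 1.

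Of 22 measured monocyte genes outside the 9 (of 24 listed), 5 were called lower and 2 higher in LSK, and 6 lower and 1 higher in GMP. Their medians were -0.43 in LSK and -0.44 in GMP. Of all clusters, 4.71% were called lower and 3.02% higher in LSK, and 2.57% lower and 3.45% higher in GMP. Emb, a membrane protein used as a marker of monocyte progenitors, was 5.62 and 5.18 in KO LSK, against 9.69 and 9.45 in Het LSK, and fell by 4.17 (adjusted p = 2.13e-05). In GMP, Emb fell by 1.84 (adjusted p = 0.000645). Ctss, a lysosomal protease that processes antigens, fell by 2.55 in LSK (adjusted p = 0.000716) and by 2.45 in GMP (adjusted p = 0.00104). Ms4a6b and Ms4a6c, members of a family of membrane proteins, fell by 2.99 and 2.53 in LSK (adjusted p = 4.92e-05 and 0.00538) and by 1.77 and 2.59 in GMP (adjusted p = 0.000764 and 0.00548). These 4 kept each of those calls in all 8 fits with 1 array left out. The remaining calls are named after their values were seen. Cd14, a lipopolysaccharide co-receptor, rose by 1.12 in LSK (adjusted p = 0.018), where its values lay below the array medians, and by 1.05 in GMP (adjusted p = 0.029). Ms4a6d, below the array medians on all arrays, rose by 0.77 in LSK (adjusted p = 0.0292). Spn fell by 0.74 in LSK and by 0.60 in GMP (adjusted p = 0.0145 and 0.0445), and Lgals3 fell by 0.72 in GMP (adjusted p = 0.0272). Each of these calls was lost in at least 2 of the 8 fits with 1 array left out, with adjusted p up to 0.24.

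The mean over 20 genes of mature tissue macrophages lay between 3.85 and 4.33 on all 8 arrays, below the array medians. Single genes were higher: Vcam1, an adhesion molecule (named after its values were seen), was 9.75 and 9.26 in KO GMP, against 8.22 and 8.25 in Het GMP. Of the 20, 1 was called lower in each cell type, a share near that of all clusters called lower (4.71% in LSK and 2.57% in GMP). None was called higher by limma (at an unadjusted p under 0.05, 0 were higher in LSK and 2 in GMP). Spic, a factor of red pulp macrophages, was 3.343 and 3.097 in KO LSK, against 4.095 and 4.771 in Het LSK, all below the array medians. It fell by 1.21 in LSK (adjusted p = 0.00774), with 0.02 in GMP. Adgre1, the gene for a surface antigen by which macrophages are sorted, was 4.02 and 3.29 in KO GMP, against 4.72 and 4.88 in Het GMP, all below the array medians. It fell by 1.15 in GMP (adjusted p = 0.0301), a call lost without Het GMP array 1 (0.13), Het GMP array 2 (0.174) or KO GMP array 2 (0.187).

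The families to which Fcgr1 and Clec12a belong held members that were higher in KO. Fcgr2b, the inhibitory IgG receptor, was 8.14 and 7.89 in KO LSK, against 5.72 and 5.43 in Het LSK, and rose by 2.44 (adjusted p = 5.6e-05). In GMP, Fcgr2b rose by 0.80 (adjusted p = 0.0222), a call lost without Het GMP array 1 (0.147), Het GMP array 2 (0.112) or KO GMP array 1 (0.163). Fcgr3 rose by 1.07 in LSK (adjusted p = 0.0465), a call kept in 1 of 8 fits with 1 array left out (adjusted p up to 0.205, without Het LSK array 1), and its GMP difference was -0.77 (adjusted p = 0.168). Fcgr4 was not called. Of 13 C-type lectin receptors, 5 were called higher and none lower by limma in LSK (1 lower at an unadjusted p under 0.05). In GMP, 4 were called higher and 1 lower. Shares over all clusters were 3.02% higher and 4.71% lower in LSK, and 3.45% higher and 2.57% lower in GMP.

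Clec9a, a receptor for dead cells on dendritic cells, was 8.69 and 7.32 in KO LSK, against 3.94 and 5.07 in Het LSK. In GMP it was 7.27 and 6.94 in KO, against 3.49 and 3.81 in Het. It rose by 3.50 in LSK (adjusted p = 0.00159) and by 3.45 in GMP (adjusted p = 0.00202). Clec4e and Clec4d, which sense mycobacterial glycolipids, rose by 2.70 and 2.57 in LSK (adjusted p = 3.1e-05 and 2.26e-05). In GMP they rose by 0.96 and 1.85 (adjusted p = 0.00727 and 8.19e-05), and the Clec4e call was lost without Het GMP array 2 (0.0746) or KO GMP array 1 (0.0582). Clec1a rose by 1.41 in LSK (adjusted p = 0.00446) and by 1.47 in GMP (adjusted p = 0.00422, and 0.05 without Het GMP array 1). Named after their values were seen, Clec7a rose by 1.03 in LSK (adjusted p = 0.0349, lost without either Het LSK array or KO LSK array 1, at 0.162, 0.129 and 0.137), and Clec5a fell by 1.19 in GMP (adjusted p = 0.00412, and 0.05 without Het GMP array 1).

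Markers of other cell types also moved with the genotype, and their part in the 9 genes' differences was not tested. Beside the counts below, 3.02% of all clusters were called higher and 4.71% lower in LSK, and 3.45% higher and 2.57% lower in GMP. In LSK, megakaryocyte markers averaged 8.36 and 8.13 in KO, against 6.37 and 6.36 in Het (4 called higher and 1 lower of 7). B cell markers averaged 5.15 and 4.73 in KO LSK, against 7.94 and 7.39 in Het LSK, with 7 of 7 measured called lower. In GMP limma called no B cell marker (2 were lower at an unadjusted p under 0.05), with a mean between 4.54 and 4.90 on all 4 arrays. Dendritic cell markers, some of which monocytes share, averaged 4.91 and 4.90 in KO LSK, against 5.96 and 6.19 in Het LSK (1 higher and 4 lower of 9). In GMP they averaged 4.31 and 4.17 in KO, against 4.74 and 4.87 in Het (2 lower of 9). Of 8 mast cell and basophil markers, 2 were called higher and 1 lower in LSK, and 2 higher and 3 lower in GMP. They averaged 6.79 and 6.69 in KO LSK, against 5.88 and 6.16 in Het LSK. In GMP they averaged 6.93 and 6.61 in KO, against 6.94 and 7.08 in Het, a mean over moves in both directions. Neutrophil granule markers, the other product of GMP cells, averaged 10.49 and 10.26 in KO GMP, against 10.71 and 11.07 in Het GMP, and 8.50 and 7.91 in KO LSK, against 8.13 and 9.09 in Het LSK. Limma called none of the 12 in GMP (3 lower at an unadjusted p under 0.05), and called 1 lower in LSK. Of 7 measured erythroid markers (of 10 listed), 2 were called higher and 2 lower in LSK, and 3 higher and 1 lower in GMP. Of 7 measured T and NK cell markers (of 8 listed), 2 were called lower in LSK and 1 in GMP, with none higher (in GMP, 1 higher at an unadjusted p under 0.05, and 0 in LSK).

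**Figure D4:**
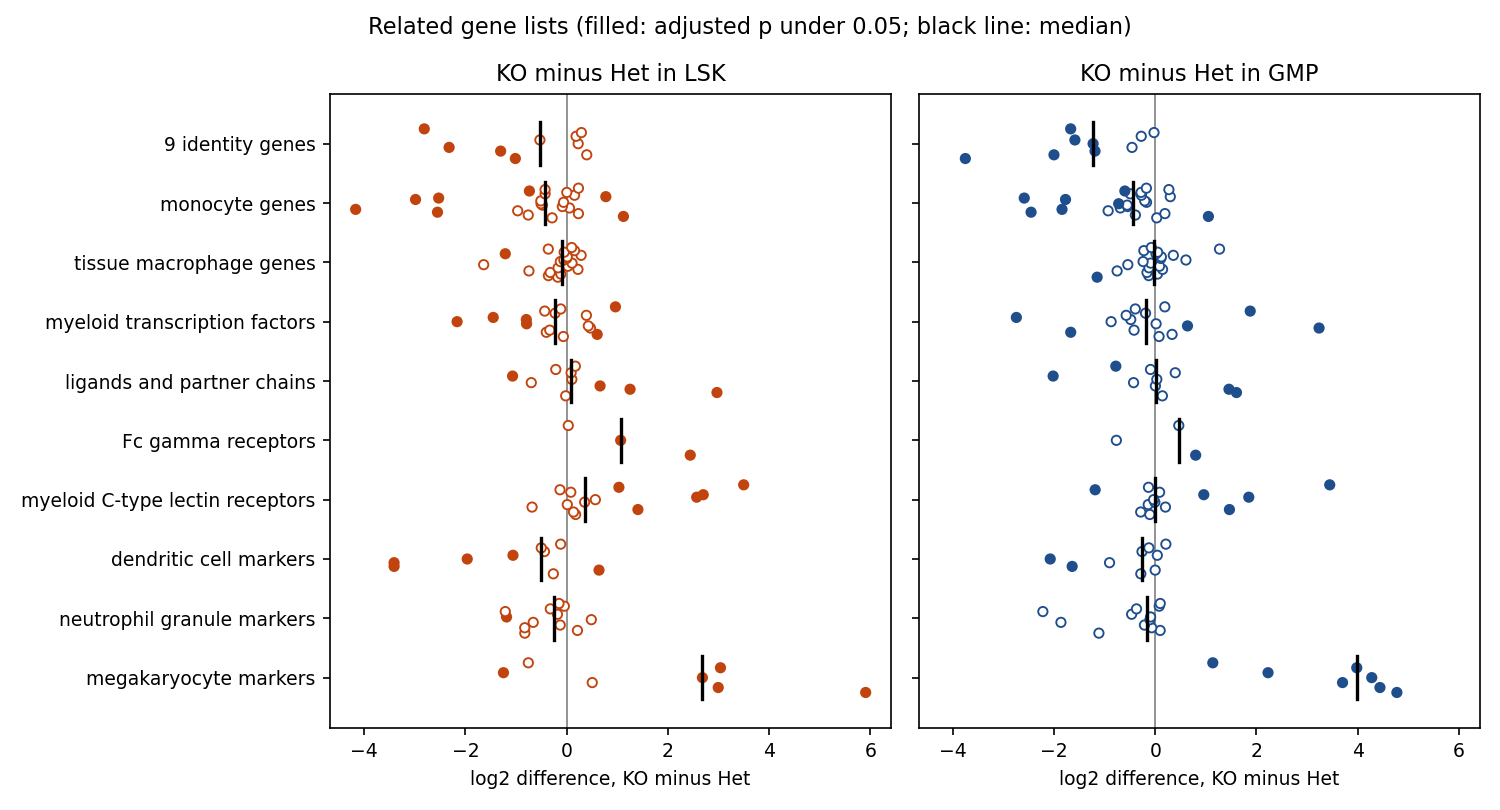
Log2 differences between KO and Het (horizontal axes, KO minus Het) in LSK cells (left) and GMP cells (right) for the 9 genes and 9 related lists. Each point is 1 gene, filled points passed at an adjusted p under 0.05, and black lines are list medians. The medians of the 9 genes are -0.53 in LSK and -1.23 in GMP, and those of megakaryocyte markers are 2.68 and 3.98.

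Likeness of profile was measured as the root mean square difference between genes' log2 values over the 8 arrays, each gene centred on its own mean, where a smaller value means a closer profile. Nearest to Csf1r were Nrg1 (0.174), Tyrobp (0.222) and Nrg2 (0.238). Nearest to Ccr2 was Ms4a2 (0.169), a chain of the IgE receptor of mast cells and basophils. Nearest to Cx3cr1 were Acp5 (0.179), Nrg4 (0.187) and Prss34 (0.192), the last a basophil protease. Nearest to Aoah were Met (0.384) and Gpr141 (0.429). Cd68 was matched most closely by Cpne2 (0.129), Mpeg1 by the chemokine gene Ccl9 (0.218), Clec12a by B4galt6 (0.348), and F13a1 by Hsd11b1 (0.297). Fcgr1, whose own profile varied by 0.183 around its mean, had Psg19 (0.067) as its nearest neighbour. The 8 arrays form 4 groups by genotype and cell type, with 2 arrays each, so likeness here largely follows the 4 group means.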

How the data were processed

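The deposited values are log2 expression per transcript cluster on 8 arrays, made by the authors with RMA (background correction, normalization to a common distribution, summary of probes), per the submitters' processing notes. The version of the software and the build were not given in the sources used here. A shift of all transcripts together would be hidden by RMA, and the amplification step can distort the size of differences.

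Of 35556 clusters, 21789 had exactly 1 gene symbol in the platform annotation, 1621 several and 12146 none. Of the 21789, 21698 matched a RefSeq table (GRCm38.p6) by Entrez number and 0 symbols changed. Limma (version 3.58.1, R 4.3.3) was fitted with 1 mean for each of 4 groups over all 8 arrays (4 residual and 4.83 prior degrees of freedom), two-sided, with Benjamini-Hochberg adjustment over the 21789 clusters of each of 5 contrasts. A cluster passed (was called) at an adjusted p under 0.05. The script was tested on simulated data. Groups came from the labels' genotype and cell type. Named genes were all 9 genes, Cbfb, up to 4 called members of each list with the largest difference, and the 3 nearest profiles of each gene, of which some are printed. A gene with several clusters was represented by the one with the highest mean.

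Alternatives were subtracting each array's median, testing all clusters, testing clusters above the median mean, a trended and robust variance prior, the replicate number as a block, the mouse (genotype and number) as a block where cell types are compared, the mean of a gene's clusters, the 4 arrays of 1 cell type, and leaving out each array. Where 1 array of a group was left out, the lone array was assumed to vary like the other groups. The genes and lists were chosen with earlier results of these data known.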

Additional observations from a re-analysis of the deposited data

Results flagged for a closer look

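For 9 of the named genes the KO against Het effect differed between GMP and LSK cells by limma's interaction test (GMP effect minus LSK effect, log2, adjusted over all clusters). Among the identity genes these were Ccr2 (-2.40) and Aoah (-2.74), both in all 8 fits with 1 array left out. When all clusters of the table were tested, with or without a symbol, Aoah missed the threshold (adjusted p = 0.0514), as did Nr4a1 (0.199), Cebpa (0.128), Fcgr2b (0.0574) and Fcgr3 (0.189). Of the transcription factors, Egr1 had 2.77 (adjusted p = 0.00483, in all 8 fits). Nr4a1 had 2.31 (adjusted p = 0.0491), and this call was kept in 1 of 8 fits with 1 array left out, with adjusted p up to 0.19 without Het GMP array 1, and missed with array medians subtracted (0.0583). Cebpa had -1.27 (adjusted p = 0.0294), kept in 2 of 8 fits, with adjusted p up to 0.122 without Het GMP array 1.

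The monocyte gene Emb had 2.33 (adjusted p = 0.00466), as its fall was larger in LSK. The Fc receptor gene Fcgr2b had -1.64 (adjusted p = 0.00873) and the lectin gene Clec4e had -1.74 (adjusted p = 0.00627), both with the larger rise in LSK. Emb, Fcgr2b and Clec4e kept the call in all 8 fits with 1 array left out. Fcgr3 had -1.84 (adjusted p = 0.047), kept in 1 of 8 fits, with adjusted p up to 0.163 without Het GMP array 2, and missed with the replicate block (0.0661).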

How the results depend on the processing

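Over the alternatives, 596 of 665 recomputed values of the 9 genes kept their direction and their side of the threshold, 36 lost a call, 20 gained one and 13 changed sign. Subtracting each array's median changed no KO against Het call of the 9 genes. It moved the share of higher among called clusters in LSK to 52.4% (903 higher, 821 lower; 39.0% without it), in the interaction to 58.4% (73.7% without it) and in GMP against LSK in Het to 67.1% (3203 higher; 45.1% without it), with the median of all clusters shifted by -0.138 in the interaction and 0.155 in Het. With 1 array left out, higher and lower counts over all clusters were 374 to 649 and 588 to 965 in LSK, 404 to 900 and 226 to 686 in GMP, 163 to 505 and 60 to 200 for the interaction, 371 to 887 and 173 to 652 for GMP against LSK in KO, and 881 to 2109 and 1197 to 2377 for it in Het. Testing all clusters of the table gave 482 and 302 in GMP (752 and 560 otherwise), 139 and 43 for the interaction (368 and 131), and 493 and 263 for GMP against LSK in KO (797 and 521), since a larger number is adjusted over. The 4 LSK arrays alone gave 418 and 653 (657 and 1027). For the interaction, genes of the 9 called more positive in GMP numbered 0 to 1 with 1 array left out, 1 (Clec12a) with only clusters above the median mean, with the trended prior, with the replicate block and with the mean of a gene's clusters, and 2 (with Mpeg1) with the mouse as a replicate block. Those called more negative numbered 1 over all clusters and 1 above the median mean, where Aoah and Fcgr1 were not tested. As the labels do not say which arrays share a mouse, the numbers were not taken to pair samples in the main fit. Deviations from the group means were correlated between same-numbered arrays of different groups. Within a genotype, where arrays can share a mouse, r was 0.179 (KO LSK and KO GMP) and 0.133 (Het LSK and Het GMP). Between genotypes it was -0.143 to -0.0255. These values do not settle whether the numbers mark mice. The replicate block gave 602 and 968 calls in LSK and 712 and 512 in GMP; Aoah in LSK missed the threshold (adjusted p = 0.057) and the Csf1r interaction passed (0.0261). Uncalled values that changed sign with 1 array left out ranged, for KO against Het in LSK, over -0.063 to 0.520 (Csf1r), -0.087 to 0.460 (F13a1), -1.022 to 0.155 (Nr4a1), -0.135 to 0.098 (Ccl12) and -0.434 to 0.084 (Adgre1). In GMP they ranged over -0.264 to 0.216 (Fcgr1), -0.575 to 0.023 (F13a1), -0.066 to 0.098 (Spic), -0.070 to 0.105 (Gfi1), -0.012 to 0.019 (Csf1) and -0.442 to 0.177 (Clec7a). For GMP against LSK in KO they ranged over -0.071 to 0.511 (Csf1r), -0.320 to 0.160 (Cx3cr1), -0.362 to 0.123 (Ccr2), -0.405 to 0.075 (Fcgr1) and -0.028 to 0.776 (Aoah). Subtracting array medians turned the Cd68 interaction to -0.0229, Ccl12 in LSK to 0.0683 and, in GMP, Spic to -0.0348, Gfi1 to -0.0332 and Csf1 to -0.0475, none of them called. The cause of these changes was not tested. The number of arrays, 2 per group, limits the precision, and RMA values carry no measure of signal over background.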
